A study of Mus musculus with 10 samples.

Results

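The genes described here are 36 genes of the cell division cycle, of the 37583 gene rows in the count tables. They were taken from a list of symbols that was drawn up with earlier results of these data known, and each symbol matched 1 Ensembl identifier in the tables. By their main role 25 of them were placed with mitosis and 11 with S phase, the time of DNA replication. The data are 10 poly(A) RNA libraries of the left atrium of adult mice. 3 libraries came from mice given vehicle (CTL1, CTL2 and CTL3) and 3 from mice given ibrutinib (IBR1, IBR2 and IBR3), an inhibitor of Bruton's tyrosine kinase that is used against B cell cancers and is known to cause atrial fibrillation in some patients. 2 libraries came from untreated wild type mice (WT35 and WT338) and 2 from mice labelled with a cardiac knockout of CSK (KO26 and KO337), the kinase that holds Src family kinases inactive. The labels used here name no strain, sex, dose, length of treatment or Cre driver behind the knockout. The labels do not say that the libraries of a group are from separate animals, so p-values measure the spread between these libraries, which may be technical.

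A dividing cell copies its DNA in S phase and separates the copies in mitosis. In S phase the helicase subunits Mcm2 to Mcm7 open the DNA, the sliding clamp Pcna holds the polymerases on it, and ribonucleotide reductase (Rrm1 and Rrm2) and thymidylate synthase (Tyms) supply nucleotides. In mitosis cyclins A and B switch on Cdk1, the Aurora and Polo kinases build the spindle, kinesin motors move it, and the anaphase-promoting complex, a ubiquitin ligase, ends the phase by marking the cyclins for destruction. Most transcripts of the mitosis genes are made mainly in cycling cells, from promoters known to carry CCAAT boxes and a nearby cell cycle homology region (CHR), while many S phase genes carry E2F sites. Adult heart muscle cells rarely divide.

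Promoters of 6 of the genes are shown first, for the short motifs that cell cycle promoters are known to share. RefSeq windows were matched for 29 of the 36 genes, and each holds the 250 bases before the annotated start in build GRCm38.p6. Both strands were searched for CCAAT, for the CHR letters TTTGAA and TTTAAA, and for the E2F letters TTTCCCGC, TTTCGCGC, TTTGCCGC and TTTGGCGC. The 6 windows shown come from different role groups and were picked among those that hold CCAAT with a CHR or E2F match. They are written 5′ to 3′ on the gene's strand and end at the base before the start. Capitals mark the matches on either strand.
Ccnb1 (chr13:100786487-100786736, minus strand): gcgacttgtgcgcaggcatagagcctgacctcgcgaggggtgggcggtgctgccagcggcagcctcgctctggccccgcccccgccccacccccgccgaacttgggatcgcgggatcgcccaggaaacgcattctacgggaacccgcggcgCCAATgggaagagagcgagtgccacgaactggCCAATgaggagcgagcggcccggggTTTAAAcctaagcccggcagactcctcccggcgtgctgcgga
Plk1 (chr7:122159185-122159434, plus strand): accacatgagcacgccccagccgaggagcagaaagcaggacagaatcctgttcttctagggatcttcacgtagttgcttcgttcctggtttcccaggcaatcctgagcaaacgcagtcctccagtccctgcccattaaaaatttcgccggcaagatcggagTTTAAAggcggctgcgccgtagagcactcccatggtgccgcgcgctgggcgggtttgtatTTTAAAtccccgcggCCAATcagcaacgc
Ube2c (chr2:164769679-164769928, plus strand): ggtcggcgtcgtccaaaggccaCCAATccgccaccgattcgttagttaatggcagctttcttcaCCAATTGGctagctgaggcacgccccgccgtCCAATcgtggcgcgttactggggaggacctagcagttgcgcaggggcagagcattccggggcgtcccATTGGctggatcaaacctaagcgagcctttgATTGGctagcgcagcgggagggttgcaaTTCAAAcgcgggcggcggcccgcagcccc
Kif11 (chr19:37376132-37376381, plus strand): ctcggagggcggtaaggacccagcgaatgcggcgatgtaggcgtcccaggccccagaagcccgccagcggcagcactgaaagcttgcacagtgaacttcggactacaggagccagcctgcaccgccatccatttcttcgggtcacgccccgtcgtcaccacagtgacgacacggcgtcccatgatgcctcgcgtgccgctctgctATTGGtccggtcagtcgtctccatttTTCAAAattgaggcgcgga
Top2a (chr11:99024190-99024439, minus strand): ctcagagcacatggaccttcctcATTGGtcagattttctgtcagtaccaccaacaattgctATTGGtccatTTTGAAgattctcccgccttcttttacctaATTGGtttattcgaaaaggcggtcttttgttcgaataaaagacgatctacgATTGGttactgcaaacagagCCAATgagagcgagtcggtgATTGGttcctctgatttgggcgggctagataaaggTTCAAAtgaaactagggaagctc
Mcm6 (chr1:128359706-128359955, minus strand): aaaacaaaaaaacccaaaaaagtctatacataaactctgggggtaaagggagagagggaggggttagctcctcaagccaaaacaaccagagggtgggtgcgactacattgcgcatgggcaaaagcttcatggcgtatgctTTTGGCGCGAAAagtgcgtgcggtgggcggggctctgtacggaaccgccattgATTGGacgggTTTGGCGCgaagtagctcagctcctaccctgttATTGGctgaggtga
In the Ccnb1, Ube2c, Kif11 and Plk1 windows a CHR match ends 37, 24, 14 and 24 bases before the start, and in the Top2a window 18 bases before it. The Mcm6 window, from an S phase gene, holds 3 E2F matches, of which 2 overlap each other, and no CHR match. The 29 genes had 31 windows. CCAAT stood in 26 of the 31, against 33.8% of all 32851 windows of the same length. A CHR match stood in 14 of the 31, against 25.2% of all windows, and an E2F match in 4 of the 31, against 1.86%. By role, CCAAT was found in 16 of 20 mitosis genes and 8 of 9 S phase genes, CHR in 12 of 20 and 2 of 9, and E2F in 1 of 20 and 3 of 9. By role, a gene was counted if any of its windows matched. These are matches of letters in short windows and not sites of binding.

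Each library held between 14907331 and 19960947 counts on genes, at which 3 counts equal 0.150 to 0.201 CPM (counts per 1e6 gene counts) before scaling. Levels below are CPM scaled by the trimmed mean of M-values (TMM), and differences are log2 values from edgeR's quasi-likelihood test with Benjamini-Hochberg adjustment over 15364 genes, called at an adjusted p under 0.05. The targeted gene, Csk, stood at 18.3 and 17.8 CPM in WT, at 24.7 in KO26 and at 35.5 in KO337, and between 21.9 and 26.7 in the vehicle and ibrutinib libraries. It was thus not lower in the libraries labelled KO (log2 difference 0.74, SE 0.18, adjusted p = 0.0608), and "labelled KO" is used throughout for that reason. The 2 libraries labelled KO also agreed less with each other (Spearman correlation across genes 0.955) than the libraries of any other group did (0.984 to 0.991).

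**Figure D1:**
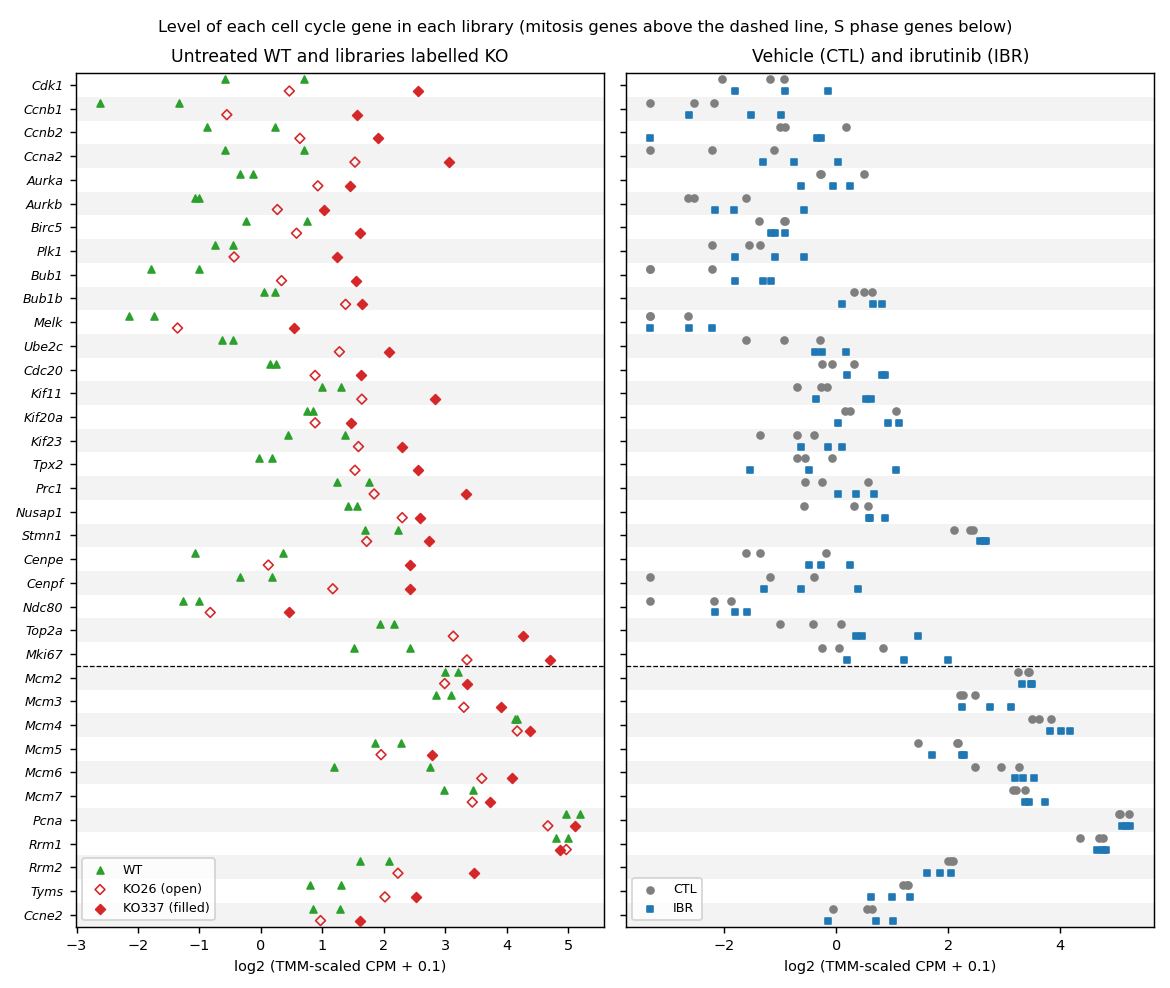
Level of each of the 36 genes in every library on a log2 scale (TMM-scaled CPM plus 0.1), with WT and labelled KO libraries on the left, vehicle and ibrutinib libraries on the right, and mitosis genes above the dashed line. KO337 (filled diamonds) is the highest of the 10 libraries for 32 of the 36 genes, including all 25 mitosis genes.

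Per kilobase of exon, most S phase genes stood above the mitosis genes in vehicle and WT. Tyms, at rank 13 in vehicle and 20 in WT, and Ccne2, at 15 and 12, lay among the mitosis genes. Pcna, the replication clamp, led in every group, at 14.5 CPM per kilobase in vehicle and 14.1 in WT, followed by the helicase subunit Mcm4 at 3.50 in vehicle and 4.92 in WT. Stmn1, which destabilises microtubules, was the only mitosis gene among the 10 highest in vehicle (2.54 CPM per kilobase) and in WT (2.01). The lowest 4 in vehicle were Ccnb1, Ndc80, Bub1 and Melk, at 0.0152, 0.0150, 0.00871 and 0.00677 CPM per kilobase. These rested on 0 to 3 counts per library, so their order is not resolved at this depth. Stmn1, Rrm1 and Mcm7, which follow each other in vehicle (2.54, 2.22 and 2.13 CPM per kilobase), overlapped in their libraries. As means over KO26 and KO337, Mki67 was at 1.79, Mcm5 at 1.32 and Mcm2 at 1.29 CPM per kilobase, where WT had 0.401, 1.04 and 1.22. The spread of Mki67 between KO26 and KO337 spans the levels of the other two, so that their order is not resolved there.

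The comparison of labelled KO with WT asks what a cardiac loss of CSK does to the atrium. Of the 34 genes that could be tested, 1 passed the threshold. That gene was Ube2c, the ubiquitin-conjugating enzyme of the anaphase-promoting complex, which rose 5.48-fold. Of all tested genes 1.31% were called higher in this comparison and 0.898% lower. The low-count filter kept 34 of the 36 genes, without Melk and Ndc80, and Ccnb1, Aurkb, Plk1 and Bub1 passed it only through the libraries labelled KO, so counts over the tested genes describe the list and support nothing. Of the 34, 33 had a positive fitted difference (50.7% of all genes did, and 49.2% a negative one), 20 had an unadjusted p under 0.05 in that direction (13.3% of all genes) and in 23 both labelled KO libraries lay above both WT libraries (26.3% of all genes, with 26.9% below). The median difference was 1.27 for the 34 genes and 0.0067 over all tested genes. In bulk tissue, more cells of a type and more RNA per cell cannot be told apart.

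**Figure D2:**
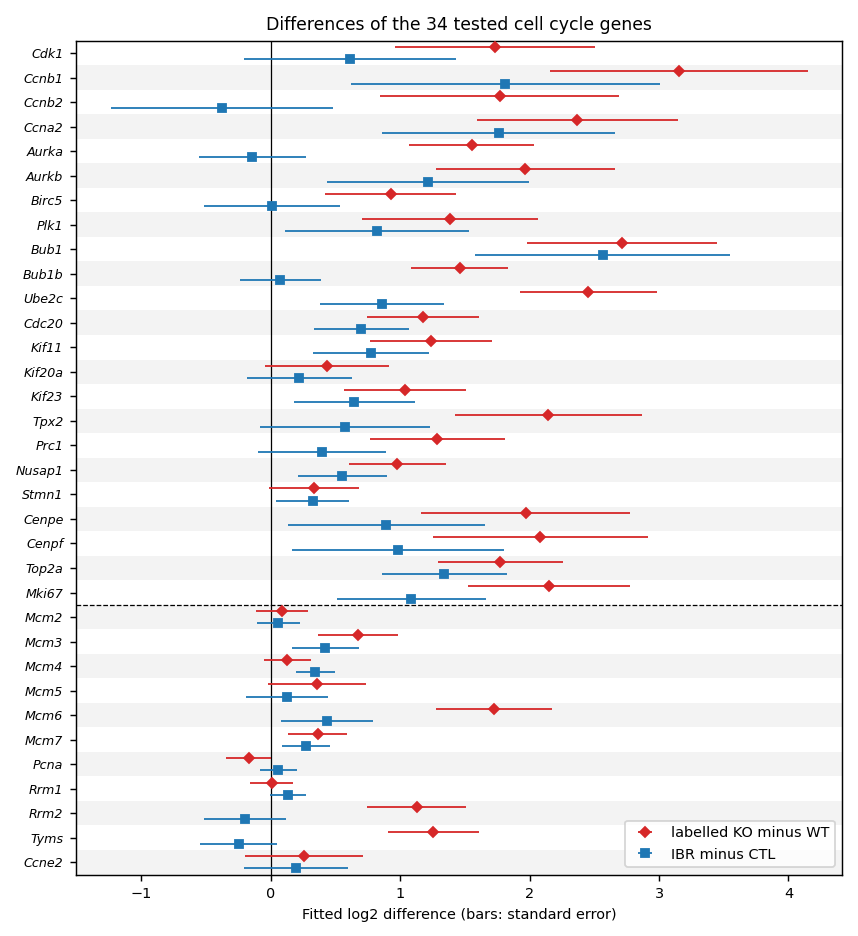
Fitted log2 difference of the 34 tested genes, labelled KO minus WT (red diamonds) and ibrutinib minus vehicle (blue squares), with bars for 1 standard error. The red points of the mitosis genes, above the dashed line, lie between 0.34 and 3.15, and those of the S phase genes between −0.17 and 1.72.

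The first group holds the cyclins that drive mitosis and their kinase. Ccnb1 (cyclin B1) stood at 0.297 CPM in WT35 and 0.0629 in WT338, and at 0.580 in KO26 and 2.85 in KO337. Ccna2 (cyclin A2) stood at 1.53 and 0.566 CPM in WT, with 2.79 and 8.24 in KO26 and KO337. For both genes the groups did not overlap, and KO337 was well above KO26. The fitted differences were 3.15 (SE 0.99, adjusted p = 0.0976) for Ccnb1 and 2.37 (SE 0.78, adjusted p = 0.106) for Ccna2, and neither passed the threshold. Ccnb2, the second B-type cyclin, differed by 1.77 (adjusted p = 0.252). Cdk1, the kinase these cyclins activate, differed by 1.73 (adjusted p = 0.190), but KO26, at 1.28 CPM, lay below WT35, at 1.53.

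Among the mitotic kinases and the spindle checkpoint, Bub1b (the checkpoint protein BubR1) stood at 0.940 and 1.07 CPM in WT, with 2.50 and 3.03 in KO26 and KO337. Its partner kinase Bub1 stood at 0.396 and 0.189 CPM in WT, with 1.16 and 2.81 in the libraries labelled KO. The groups did not overlap for either gene, and for Bub1b the labelled KO libraries lay closer together than for any other mitosis gene (ratio of KO337 to KO26 1.22). The differences were 1.46 (SE 0.38, adjusted p = 0.0648) and 2.71 (SE 0.73, adjusted p = 0.0732). Aurka, the kinase of the spindle poles, differed by 1.55 and Aurkb, the kinase of the chromosomal passenger complex, by 1.97, with adjusted p = 0.0945 and 0.120. Birc5 (survivin), another subunit of that complex, differed by 0.93, and Plk1, the Polo-like kinase, by 1.38, with adjusted p = 0.272 and 0.225. Melk, a kinase common in proliferating cells, had too few reads to be tested. Its counts were 4 and 2 in WT, 5 in KO26 and 30 in KO337, against 0 to 2 in the vehicle and ibrutinib libraries.

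The ubiquitin ligase of mitotic exit was represented by Ube2c and by Cdc20, the activator that brings substrates to it. Ube2c stood at 0.544 and 0.629 CPM in WT, 2.32 in KO26 and 4.12 in KO337. Both labelled KO libraries lay above all 8 others, the highest of which was IBR2 at 1.03. The difference of 2.45 (SE 0.53, adjusted p = 0.0458) was the only call among the 34 genes. It was lost when any of the other 9 libraries was left out (adjusted p 0.0546 to 0.228) and kept without KO26 (2.80, adjusted p = 0.00469). It was also lost in a fit of the WT and labelled KO libraries alone (2.49, adjusted p = 0.305). In a GRCm38 annotation 22.8% of the exon bases of Ube2c are shared with Tnnc2 on the opposite strand, and Tnnc2 was listed at 0 in all 10 libraries. Cdc20 stood at 1.09 and 1.01 CPM in WT, with 1.74 and 2.99 in the libraries labelled KO. These groups did not overlap either, and the difference of 1.17 (SE 0.43, adjusted p = 0.129) did not pass.

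Of the 10 genes of the spindle and kinetochore, 9 were tested and none was called. Tpx2, which targets Aurora A to the spindle, stood at 1.04 and 0.880 CPM in WT, with 2.79 and 5.75 in KO26 and KO337. Kif11, the kinesin that pushes the spindle poles apart, stood at 2.37 and 1.89 CPM in WT, with 3.02 and 7.02 in the libraries labelled KO. Both genes had groups that did not overlap, with differences of 2.15 (SE 0.73, adjusted p = 0.112) and 1.24 (SE 0.47, adjusted p = 0.140). The kinetochore proteins Cenpe and Cenpf differed by 1.97 and 2.08 (adjusted p = 0.163 and 0.153). Cenpe, a kinesin, had the widest ratio between the labelled KO libraries of all 36 genes (5.32), with KO337 at 5.25 CPM and KO26 at 0.987, which is below WT35 at 1.19. Of the central spindle genes, Prc1, a bundler of antiparallel microtubules, differed by 1.29, Kif23 by 1.04 and Kif20a by 0.43, and Nusap1, which binds spindle microtubules, by 0.98, with adjusted p between 0.142 and 0.600. Kif20a shares 29.3% of its exon bases with Cdc23 on the opposite strand and Prc1 shares 11.1% with Rccd1, and since strand was not used in counting, their reads cannot be fully separated. The same limit holds for Ccna2, which shares 12.5% with Exosc9, for Ccne2, which shares 17.4% with Ints8, and for Nusap1, Cdc20 and Mcm7, which share 1.45% to 7.25% with counted genes on the opposite strand. Stmn1 had 4.60 CPM in WT35, 3.14 in WT338, 3.19 in KO26 and 6.57 in KO337, so the groups overlap. Ndc80, of the kinetochore complex named after it, was not tested, with counts of 8 and 5 in WT, 8 in KO26 and 28 in KO337.

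Top2a, the topoisomerase that untangles replicated chromosomes, stood at 4.40 and 3.71 CPM in WT, 8.65 in KO26 and 19.1 in KO337. Mki67, the proliferation antigen Ki-67 that coats mitotic chromosomes, stood at 5.29 and 2.77 CPM in WT, with 10.1 and 25.9 in the libraries labelled KO. With up to 571 counts in 1 library these were the mitosis genes with the most reads in the libraries labelled KO, and the groups did not overlap for either. Top2a differed by 1.77 (SE 0.48, adjusted p = 0.0739) and Mki67 by 2.15 (SE 0.62, adjusted p = 0.0860). Neither was called.

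The fitted differences of the 6 helicase subunits ran from 0.086 to 1.72, and none was called. Mcm6 stood at 2.18 CPM in WT35 and 6.66 in WT338, and at 12.0 in KO26 and 16.9 in KO337. Mcm3 stood at 7.07 and 8.42 CPM in WT, with 9.75 and 14.9 in the libraries labelled KO. For both the groups did not overlap, and the Mcm6 value of WT35 was the lowest of all 10 libraries, the others lying between 5.48 and 16.9. Mcm6 differed by 1.72 (SE 0.45, adjusted p = 0.0664), by 2.73 without WT338 and by 1.12 without WT35 (adjusted p = 0.0605 and 0.251), and Mcm3 by 0.67 (SE 0.31, adjusted p = 0.199). The differences of Mcm2, Mcm4, Mcm5 and Mcm7 were 0.086, 0.13, 0.35 and 0.36, with adjusted p from 0.335 to 0.824, and the labelled KO and WT libraries overlapped for each of them.

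Of the clamp, the nucleotide enzymes and cyclin E2, Tyms stood at 2.37 and 1.63 CPM in WT, 3.95 in KO26 and 5.66 in KO337. Rrm2, the small subunit of ribonucleotide reductase, stood at 4.16 and 2.95 CPM in WT, with 4.59 and 11.0 in the libraries labelled KO. Neither gene's groups overlapped, though the Rrm2 value of KO26 lay close to that of WT35. The differences were 1.25 (SE 0.35, adjusted p = 0.0793) and 1.13 (SE 0.38, adjusted p = 0.113). Rrm1, the large subunit of the same enzyme, differed by 0.0066 (SE 0.17), with 32.0 and 27.8 CPM in WT and 31.2 and 28.9 in the libraries labelled KO. Pcna was the 1 gene with a negative fitted difference, −0.17 (SE 0.17, adjusted p = 0.564), at 36.5 and 30.9 CPM in WT and 25.3 and 34.5 in the libraries labelled KO, and with scaling by total counts its sign turned (0.062). Ccne2 (cyclin E2), which starts S phase with Cdk2, differed by 0.26 (adjusted p = 0.759).

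Mitosis and S phase genes were also added up in each library. The 25 mitosis genes added up to 39.8 and 30.2 CPM in WT, 63.3 in KO26 and 144 in KO337. The 11 S phase genes added up to 127 and 118 CPM in WT, 129 in KO26 and 166 in KO337. Pcna and Rrm1 were the most abundant genes of the S phase sum in every library, and Mcm6, Tyms and Rrm2, with differences of 1.72, 1.25 and 1.13, made up less of it. Of the reads on the 36 genes, mitosis genes took 23.8% and 20.3% in WT, 33.0% in KO26 (95% Wilson interval 31.4 to 34.6) and 46.5% in KO337 (45.4 to 47.7). The shares of the labelled KO libraries lay above those of all other libraries, and these intervals cover counting error only. The median fitted difference was 1.73 over the 23 tested mitosis genes and 0.35 over the 11 S phase genes. Of the 23, 4 passed the low-count filter only through the libraries labelled KO, and of the 11 none did. Mitosis genes were not tested against S phase genes, since genes are not replicates.

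**Figure D3:**
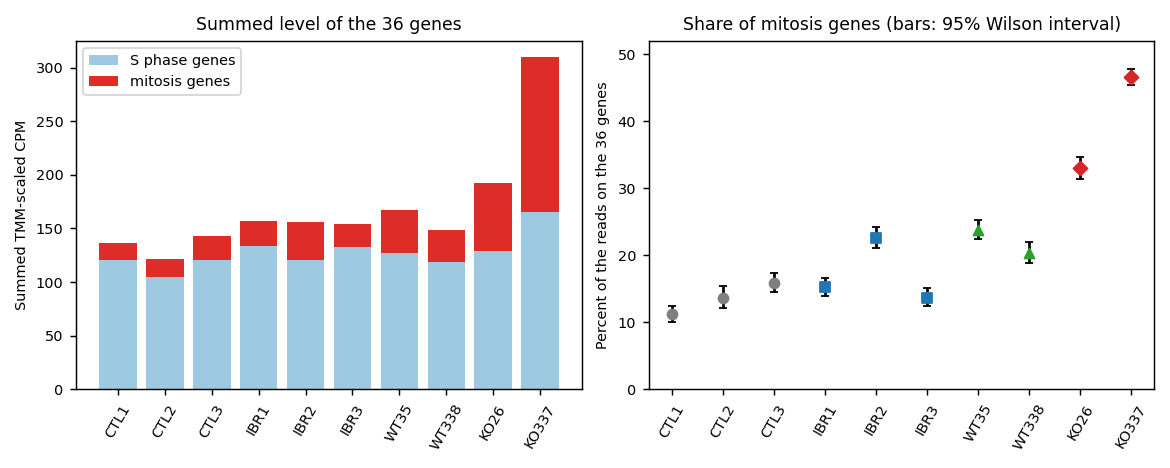
Left, summed TMM-scaled CPM of the 11 S phase and 25 mitosis genes in each library; right, percent of the reads on the 36 genes that fell on mitosis genes, with 95% Wilson intervals. The mitosis sum is lowest in CTL1 (15.2 CPM) and highest in KO337 (144), and the S phase sum lies between 105 and 166 CPM.

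Of the 2 libraries labelled KO, KO337 held the higher levels. It exceeded KO26 in 35 of the 36 genes, where 47.8% of all tested genes did so, and it was the highest of all 10 libraries in 32. The ratio of KO337 to KO26 had a median of 2.33 over the mitosis genes and 1.42 over the S phase genes. KO26 by itself lay above both WT libraries in 21 of 25 mitosis genes and 4 of 11 S phase genes, against 37.6% of all tested genes, and KO337 did so in 25 and 9, against 42.0%. With KO337 left out, the median difference was 0.94 over the mitosis genes, with 22 of 23 positive, and 0.043 over the S phase genes, with 7 of 11 positive, and no gene was called (0.195% of all genes were called higher and 0.117% lower). With KO26 left out the medians were 2.23 and 0.54, and 20 of the 34 genes were called higher (11.6% of all genes, with 13.2% lower), 17 of them mitosis genes and the others Mcm6, Rrm2 and Tyms. Each of these fits has 1 library labelled KO, whose spread is taken to be that of the other groups. In the fit with KO26 as the one library labelled KO, the highest differences were those of Ube2c (1.96) and Bub1 (1.91). The lowest was that of Pcna (−0.43). Bub1 passed the low-count filter only through the libraries labelled KO.

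**Figure D4:**
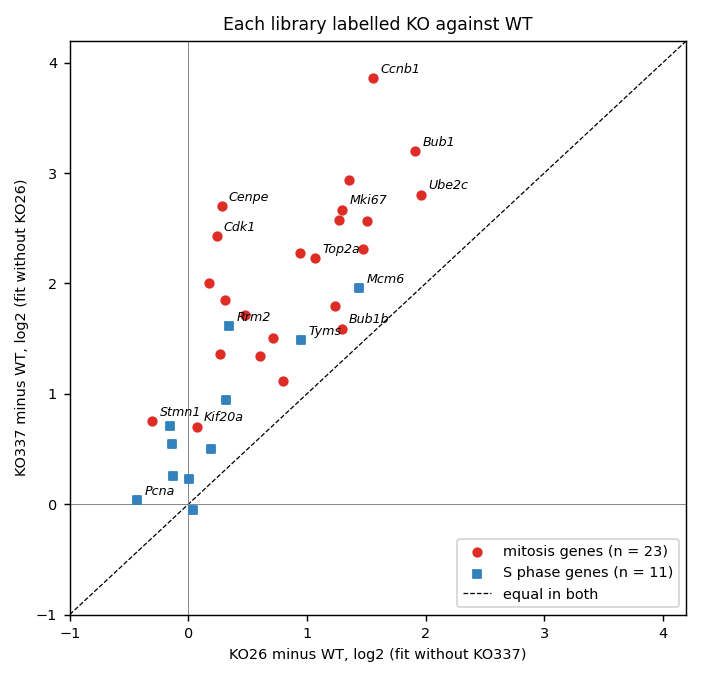
Fitted log2 difference from WT with KO26 as the only library labelled KO (horizontal) and with KO337 as the only one (vertical), for the 34 tested genes, with a dashed line where both are equal. Nearly all points lie above the line, the exception being Rrm1. Cenpe lies at 0.28 and 2.70 and Cdk1 at 0.24 and 2.43.

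Markers of other cell types were read in the same libraries. The 10 macrophage markers added up to 510 and 554 CPM in WT, 867 in KO26 and 3328 in KO337. The difference was positive for 10 of 10 (50.7% of all genes). Adgre1 and Fcgr1 were called, where 1.31% of all genes were called higher. Lyz2 alone held 1840 CPM of the KO337 sum, while Mrc1 differed by only 0.12. Cd68 in KO26 (16.4 CPM) lay between WT35 (16.3) and WT338 (21.4). The 8 T and NK cell markers added up to 2.72 and 3.21 CPM in WT, 18.6 in KO26 and 12.9 in KO337, with Gzma at 0 in WT35. Cd3e and Cd8a were called, but 5 of the 6 tested genes of this list, these among them, passed the low-count filter only through the libraries labelled KO. Both lists were highest in the libraries labelled KO, T and NK cell markers in KO26 and macrophage markers, like the mitosis genes, in KO337. The 8 fibroblast markers added up to 2699 and 2439 CPM in WT, 3134 in KO26 and 12086 in KO337, and the 4 smooth muscle markers to 78.7, 131, 95.1 and 438. Of the fibroblast sum in KO337, the collagens Col1a1, Col1a2 and Col3a1 held 1672, 2391 and 3673 CPM. Pdgfra, alone of the 8, was lower in KO337 (135 CPM) than in KO26 (169). The 6 endothelial markers stood at 920 and 1092 CPM in WT, with 1037 and 1325 in the libraries labelled KO. The 8 cardiomyocyte markers stood at 71272 and 66913 CPM in WT, 54381 in KO26 and 28992 in KO337, and led all other lists in every library. B cell markers lay between 0.683 and 4.84 CPM, neutrophil markers between 0.402 and 20.0 and erythroid markers between 10.9 and 801 over the 10 libraries, with Ly6g at 0 in 6 of them. Neutrophil markers stood at 2.13 and 0.943 CPM in WT, 3.71 in KO26 and 10.55 in KO337. Erythroid markers, unlike the mitosis genes, were higher in KO26 (280 CPM) than in KO337 (10.9), with 56.5 and 22.3 in WT. The part of these cell types in the level of the cell cycle genes was not tested.

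**Figure D5:**
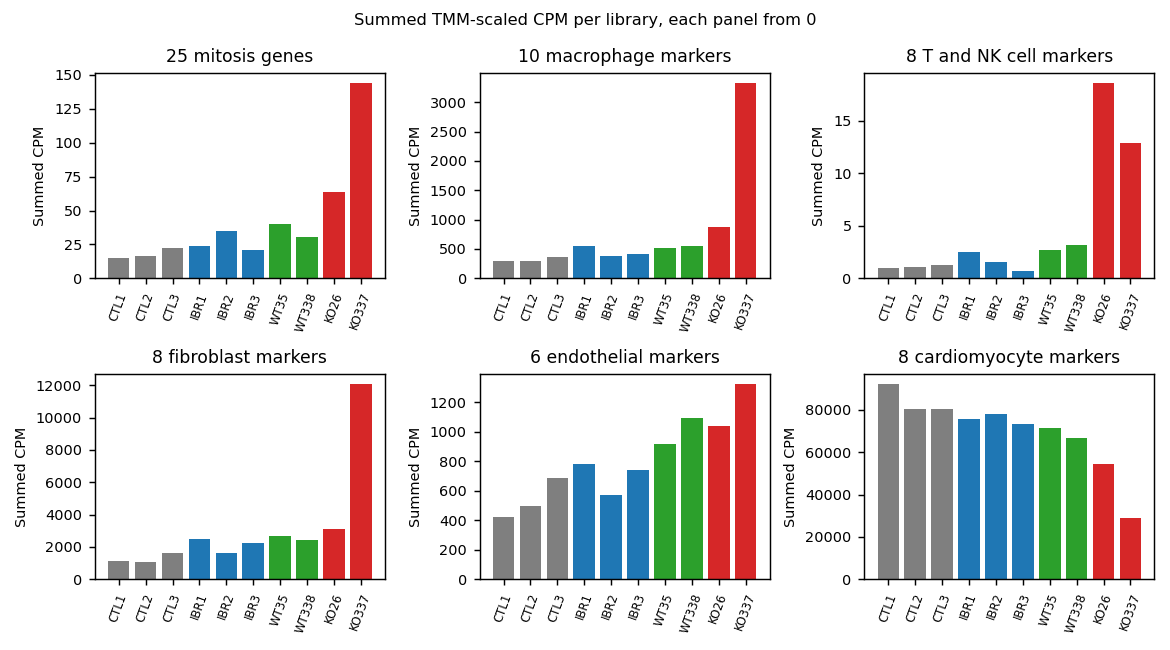
Summed TMM-scaled CPM per library of the 25 mitosis genes and of 5 lists of cell type markers, each panel with its own axis from 0. Mitosis genes, macrophage and fibroblast markers are highest in KO337, T and NK cell markers in KO26, and cardiomyocyte markers are lowest in KO337.

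The comparison of ibrutinib with vehicle asks what the drug does to the same tissue. No cell cycle gene was called by edgeR, DESeq2 or limma voom, and edgeR called 0% of all 15364 genes. Of the 34 tested genes 30 had a positive difference (44.7% of all genes did), and the median was 0.43, against −0.032 over all genes. At an unadjusted p under 0.05 there were 3 genes higher, Top2a, Bub1 and Mcm4, and 0 lower, where 3.31% of all genes were higher and 2.21% lower. In Bub1, Nusap1, Stmn1 and Top2a every ibrutinib library lay above every vehicle library, as in 5.91% of all genes, and in none did every one lie below (7.55% of all genes). The lowest adjusted p of the list was 0.823.

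Top2a stood at 0.398, 0.649 and 0.966 CPM in vehicle and at 1.17, 2.64 and 1.28 in ibrutinib. The groups did not overlap, IBR2 was the highest, and the difference was 1.34 (SE 0.48, unadjusted p = 0.0185). Bub1 had 2, 0 and 0 counts in the vehicle libraries and 3, 6 and 5 in the ibrutinib libraries. Scaled by TMM library size, the ratio of the summed counts is 6.73, with an exact 95% interval for counting error of 1.54 to 61.0 (unadjusted p of the fit 0.0255). Mcm4 stood at 12.2, 11.2 and 14.2 CPM in vehicle and at 17.9, 16.1 and 13.9 in ibrutinib, a difference of 0.35 (SE 0.15, unadjusted p = 0.0444) with IBR3 below CTL3. Ccna2 stood at 0.114, 0 and 0.362 CPM in vehicle and at 0.493, 0.919 and 0.306 in ibrutinib, which overlap, with a difference of 1.76 (SE 0.90, unadjusted p = 0.0779). Ccnb1 had 3 counts over the vehicle libraries and 12 over the ibrutinib libraries, a ratio scaled in the same way of 3.84 (1.04 to 21.2). At these counts the sizes of the fitted differences carry little precision. Mki67 stood at 0.740, 0.937 and 1.69 CPM in vehicle and at 2.22, 3.91 and 1.04 in ibrutinib, and Ube2c at 0.228, 0.721 and 0.423 against 0.740, 1.03 and 0.673. In both genes 1 ibrutinib library lay within the vehicle range, IBR3 each time. The Ube2c difference was 0.86 (SE 0.48, adjusted p = 0.823).

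The remaining mitosis genes differed by between −0.38 (Ccnb2) and 1.22 (Aurkb), and Aurka also had a negative value (−0.14). The remaining S phase genes differed by between −0.25 (Tyms) and 0.43 (Mcm6), with Rrm2 at −0.20. The 25 mitosis genes added up to 15.2, 16.6 and 22.7 CPM in vehicle and to 23.9, 35.1 and 21.0 in ibrutinib, so the groups overlap. Their share of the reads on the 36 genes was 11.2%, 13.7% and 15.9% in vehicle and 15.2%, 22.6% and 13.7% in ibrutinib. IBR2 was the highest ibrutinib library in 21 of the 25 mitosis genes and lay above all vehicle libraries in 22, while IBR1 did so in 12 and IBR3 in 8. The shares of all tested genes were not counted here, so these counts describe the list and support nothing. Without IBR2 the median over the tested mitosis genes was 0.38 in place of 0.70, and 17 of 23 were positive in place of 21. The S phase genes added up to 121, 105 and 120.2 CPM in vehicle and to 133, 120.4 and 133 in ibrutinib. Macrophage markers stood at 294 to 358 CPM in vehicle and 385 to 549 in ibrutinib, highest in IBR1 and lowest, of the ibrutinib libraries, in IBR2. Fibroblast markers stood at 1041 to 1607 CPM in vehicle and 1645 to 2485 in ibrutinib, and cardiomyocyte markers at 80231 to 92187 and 73493 to 77896. Their part in the values of the cell cycle genes was not tested.

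Whether the difference under the knockout label exceeded that under ibrutinib was tested as the difference of effects, and no cell cycle gene was called by edgeR (0% of all genes higher and 0.026% lower), DESeq2 or limma voom. At an unadjusted p under 0.05 it was higher for 6 of the 34 genes, against 4.97% of all genes, and lower for 0, against 4.82%. A positive value was found in 31 of the 34, against 52.7% of all genes, and a negative one in 3, against 47.3%. Without KO337 the direction turned, with 13 positive and 21 negative values and a median of −0.11 in place of 0.58. The 6 were Tyms (1.50), Bub1b (1.39), Aurka (1.69), Rrm2 (1.33), Mcm6 (1.29) and Ube2c (1.59), with the lowest adjusted p at 0.387 for Tyms. The WT and labelled KO libraries and the vehicle and ibrutinib libraries were not the same samples, so the 2 comparisons share no control, but they share 1 estimate of the spread. The common coefficient of variation between libraries was 0.221 in the joint fit. It was 0.294 with the WT and labelled KO libraries fitted alone and 0.169 with the vehicle and ibrutinib libraries alone. Over all genes together, the joint fit thus used a smaller common spread than the WT and labelled KO libraries showed alone. For the vehicle and ibrutinib libraries it used a larger one. Spread was also fitted gene by gene, so single genes can go the other way.

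A wider list of 97 further cell cycle genes was read in the same fit. Of these, 96 were in the tables and 93 were tested, 11 of them only through the libraries labelled KO. In labelled KO against WT, 71 had a positive and 22 a negative difference (50.7% and 49.2% of all genes), with a median of 0.56. 1 gene rose, which is near the share of all genes called higher (1.31%). It was Cdkn2c (p18Ink4c, an inhibitor of Cdk4 and Cdk6), at 9.65 and 8.17 CPM in WT and 16.5 and 18.8 in the libraries labelled KO, a difference of 0.99 (SE 0.21, adjusted p = 0.0464). The groups of this inhibitor did not overlap, and the vehicle and ibrutinib libraries lay between 16.0 and 22.4 CPM. The call was lost when any library but KO26 was left out (adjusted p 0.0564 to 0.200) and kept without KO26 (0.00965). It was also lost with the WT and labelled KO libraries fitted alone (0.314) and with limma voom (0.0502).

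By sub-list, 18 of 19 further genes of the spindle, kinetochore and cytokinesis were positive with a median of 1.55, where the gene with the smallest p was Anln (anillin, of the contractile ring) at 1.51 (SE 0.44, adjusted p = 0.0822). Of 19 tested kinases and checkpoint genes 14 were positive with a median of 0.97, led by Incenp, the scaffold of the passenger complex (0.97, adjusted p = 0.0802). Of 7 condensin and lamina genes 6 were positive with a median of 0.97, led by Hmgb2, a DNA-bending protein (0.97, adjusted p = 0.0685). Origin licensing and replication fork genes had 16 of 23 positive with a median of 0.15, led by Gins2 of the replicative helicase (1.40, adjusted p = 0.106). Cell cycle transcription factors had 9 of 13 positive with a median of 0.11, led by Rbl1 (p107, a relative of the retinoblastoma protein) at 0.87 (adjusted p = 0.0734). G1 cyclins and kinases had 4 of 7 positive with a median of 0.16, led by Ccnd1 (cyclin D1) at 0.43 (adjusted p = 0.351), and the 5 tested inhibitors of cyclin-dependent kinases had 4 positive with a median of 0.68. The sub-lists were not tested against each other, and 10 of the 11 genes that passed the low-count filter only through the libraries labelled KO belong to the spindle, kinase and condensin sub-lists. In ibrutinib against vehicle 55 of the 93 were positive (44.7% of all genes), their median was 0.12, and no gene passed the adjusted threshold. At an unadjusted p under 0.05 there were 4 higher and 0 lower, near the shares of all genes (3.31% and 2.21%).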

How the data were processed

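Counts per gene were deposited by the authors for each library. Per the submitters' processing notes, STAR, HTSeq, edgeR and the build mm9 were used, without versions; per the labels' protocols, libraries were made with a directional poly(A) kit. Counting ignored strand, per the names of the deposited files. Raw counts of 10 libraries (3 CTL, 3 IBR, 2 WT, 2 KO) were fitted in 1 model with group means by edgeR 4.0.16 (quasi-likelihood, robust, TMM scaling) in R 4.3.3, with 6 residual degrees of freedom. filterByExpr (minimum count 10, total 15) kept 15364 of 37583 genes; it needs at least 0.589 CPM in 2 libraries. The Benjamini-Hochberg threshold was 0.05, and one-gene tests are two-sided. Rows for reads with no feature, ambiguous reads and non-unique alignments stayed out; no-feature reads were 13.5% to 19.9% of all rows. Levels are TMM-scaled CPM, and fold is 2 to the fitted difference. The standard error (SE) was derived from the test, as the size of the fitted difference over the square root of its quasi-likelihood F.

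The 36 genes, role groups and other lists were chosen with earlier results of these data known. All 36 are named; values in every library are given for the 2 genes of each role group with the smallest p for KO minus WT, for called genes, and for the 4 smallest p for IBR minus CTL. In the wider list, called genes and the smallest p of each sub-list are named; values by library for Cdk1, Cenpe, Stmn1, Rrm1, Pcna, Melk, Ndc80 and Mki67 in vehicle and ibrutinib were added after they were seen. Promoters shown have the smallest p for KO minus WT among the genes of their role group whose window holds CCAAT with CHR or E2F. Symbols and exon lengths are from a GRCm38 annotation, which is not the build of the alignments. Alternatives were other scalings, DESeq2 1.42.0, limma 3.58.1 (voom), no filter, each experiment alone, a replicate block and leaving out each library.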

Additional observations from a re-analysis of the deposited data

How the results depend on the processing

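With 2 libraries of each genotype, calls turned on the tool and on single libraries of every group. In labelled KO against WT the 1 called cell cycle gene became 8 with DESeq2, 2 with limma voom, 5 with no low count filter and 0 with the WT and labelled KO libraries fitted alone, and 0 to 20 when each library was left out, the 20 without KO26. The 1 called gene of the wider list became 3 with total count scaling, 11 with DESeq2, 0 with limma voom, 8 with no filter, 0 with those libraries alone, and 0 to 22 when each was left out. DESeq2 called Ube2c, Ccna2, Bub1, Bub1b, Top2a, Mki67, Mcm6 and Tyms. Csk was called higher with total count scaling, DESeq2, no filter and without KO26 (0.70 to 0.98). The median of the tested genes, 1.27, was 0.542 to 1.66 when each library was left out, lowest without KO337. The difference of effects called 0 to 2 genes on leaving out a library, 2 without KO26 (612 higher and 897 lower over all genes). Over all genes the 201 higher and 138 lower calls became 295 and 66 with total count scaling, which moved the median of all genes to 0.23, 900 and 930 with DESeq2, 467 and 679 with no filter, 0 and 0 with those libraries alone, and, on leaving out each library, 1 to 1777 higher and 11 to 2034 lower. The highest were without KO26, and calls were fewer without any other library, with 8 and 11 without IBR3, 1 and 13 without WT35, 2 and 14 without WT338, 30 and 18 without KO337, and at most 98 and 65 without each vehicle library, IBR1 or IBR2. The cause of these changes was not tested.

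Signs turned for Pcna with total count scaling (0.062) and Rrm1 with no filter (−0.034) in labelled KO against WT, and in ibrutinib against vehicle for Cdkn2c with total count scaling (0.040) and for Csk with total count scaling (0.059), no filter (0.017) and the vehicle and ibrutinib libraries alone (0.0013). On leaving out each library, signs turned in labelled KO against WT within these ranges: Stmn1 −0.30 to 0.75, Mcm2 −0.13 to 0.26, Mcm5 −0.15 to 0.71, Pcna −0.43 to 0.034, Rrm1 −0.090 to 0.11 and Ccne2 −0.14 to 0.54. In ibrutinib against vehicle they turned within these: Cdk1 −0.0084 to 0.99, Ccnb2 −0.81 to 0.20, Aurka −0.38 to 0.21, Birc5 −0.16 to 0.11, Bub1b −0.087 to 0.27, Kif20a −0.013 to 0.60, Tpx2 −0.58 to 1.02, Mcm2 −0.0021 to 0.11, Mcm5 −0.071 to 0.29, Ccne2 −0.084 to 0.48, Cdkn2c −0.22 to 0.035, Csk −0.11 to 0.033 and Ccnd1 −0.061 to 0.44. None of these was a call. Of 340 values per comparison from leaving out each library, 304 in labelled KO against WT and 326 in ibrutinib against vehicle kept their sign and side of the threshold.

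Vehicle and ibrutinib libraries share numbers 1 to 3, but same-numbered libraries correlated at 0.016, 0.16 and 0.032 in their deviations from the group means, so the numbers were not taken as pairs, nor did every library correlate best with its own number. With the replicate block, 0 of the 36 genes and 0 of the wider list were called, with a median of 0.41 against 0.43 without it. WT and labelled KO libraries share no number.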

Other observations

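A few genes of the wider list lay against the direction of the mitosis genes; they were singled out after their values were seen. Pttg1 (securin, the inhibitor of sister chromatid separation) stood at 36.1 and 32.4 CPM in WT, 22.2 in KO26 and 4.53 in KO337, and at 81.9 to 102 CPM in the vehicle and ibrutinib libraries. The difference of labelled KO from WT was −1.37 (SE 0.52, edgeR adjusted p = 0.142). Cenpa, the centromeric histone, stood at 45.8 and 37.0 CPM in WT and 21.9 and 30.4 in the libraries labelled KO (−0.66, adjusted p = 0.102). Dut, which removes dUTP, stood at 24.2 and 18.7 CPM in WT and 16.7 and 10.5 in the libraries labelled KO (−0.66, adjusted p = 0.107). In each of the 3 both labelled KO libraries lay below both WT libraries, and none passed the threshold. The same held for 7 of the 93 tested genes of the wider list and for 26.9% of all tested genes. Cdkn1b (p27), an inhibitor of cyclin-dependent kinases, stood at 73.4 and 68.8 CPM in WT and 104 and 124 in the libraries labelled KO (0.68, adjusted p = 0.0554). Higher labelled KO libraries without overlap were found in 55 of the 93 and in 26.3% of all tested genes. Of the 93, 11 passed the low-count filter only through the libraries labelled KO, so these counts describe the list and support nothing.

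The processed Pcna pseudogene Pcna-ps2 held 35 counts in KO26 and 3 to 7 in each other library, while Pcna itself was lowest in KO26. The untreated WT libraries held more mitosis reads than the vehicle libraries (39.8 and 30.2 against 15.2 to 22.7 summed CPM). That comparison is of untreated mice with vehicle-treated mice of another experiment, so treatment cannot be told apart from other differences between the experiments. Non-unique alignments, for one, were 14.7% and 13.8% of all rows in WT and 19.2% to 27.4% in vehicle. The comparison was not tested.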
